A study of Homo sapiens with 4 samples.

Results

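Homologous recombination, the Fanconi pathway, mismatch repair and the damage kinases were followed here as 39 named genes, each found once among the 57820 genes of the deposited table by its symbol. All cells were 786-0, an established line from a human renal carcinoma, grown in DMEM with serum, and all went through 12 h without amino acids before RNA was taken. One group carried a non-targeting short hairpin RNA (shNT, the controls, 2 libraries) and the other a hairpin against GLUD1, the mitochondrial glutamate dehydrogenase (shGLUD1, 2 libraries). Starvation was common to both groups, no fed cells were compared, and the labels do not say whether each hairpin line was a clone or whether replicates were separate cultures; the p-values then rest on library-to-library spread alone, part or all of which may be technical.

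Homologous recombination repairs a broken chromosome by copying the sister chromatid. The ends are resected to single strands, BRCA2 and its partners build a protein filament on them, and RAD54 proteins help that filament invade the intact copy. The Fanconi pathway removes crosslinks between DNA strands: a core complex attaches ubiquitin to FANCD2 and FANCI, which then call in nucleases and the recombination machinery. ATM and ATR are the kinases that sense breaks and stalled forks, and CHEK2 and CHEK1 pass their signal to the cell cycle. Many of these genes are transcribed mainly in late G1 and S phase, so their RNA is usually higher in populations with more dividing cells.

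Values are TPM (transcript levels corrected for length and scaled to a fixed total per library), so levels of different genes can be set side by side. The targeted gene did not separate the groups: GLUD1 stood at 18.09 and 17.43 TPM in the controls and at 13.52 and 19.82 TPM in shGLUD1 (log2 fold change -0.11, limma adjusted p = 0.631), and after rescaling by median ratios at a log2 fold change of -0.74 (adjusted p = 0.00428). All directions below are therefore those of the libraries labelled shGLUD1. Across the 12524 genes averaging 1 TPM or more, which were tested, median TPM was 5.77 and 5.88 in shNT and 9.82 and 11.6 in shGLUD1, and the median log2 fold change of these genes was 0.63. Each result is therefore given on TPM and again after rescaling, where the median of all genes tested was 0.08. Of the renal and 786-0 markers, VIM, KRT8, EPAS1 and PAX8 were detected in every library, while PAX2 and CDH6 were at or near 0. Among the 12 on that list, 8 were tested, with log2 fold changes from -0.64 to 2.08 on TPM. At a limma adjusted p under 0.05, 6 were higher and 1 lower on TPM, and 5 higher and 2 lower rescaled. For all genes tested, 56.7% were higher and 7.77% lower on TPM, and 27.7% and 24.8% rescaled. The leukocyte, blood and endothelial markers PTPRC, CD3E, HBB, HBA1, LYZ and VWF all stayed under 1 TPM. Of the 12 markers of other cell types found, CD68, ACTA2 and COL1A1 passed the filter and were higher on TPM, and the list summed to 167 and 152 TPM in the controls and 228 and 265 TPM in shGLUD1, most of it CD68 (146 to 241 TPM); its part in the results was not tested.

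The repair genes as a whole were low and mostly higher in shGLUD1. Their TPM summed to 166 and 176 in the shNT libraries and to 355 and 440.2 in the shGLUD1 libraries. In 36 of the 39 both shGLUD1 libraries lay above both shNT libraries, and only RAD51D, ATM and ATR overlapped between the groups. Among the 34 that passed the filter of a mean of at least 1 TPM, 31 were separated in that way, where the same held for 69.9% of all genes tested. The limma test called 28 of these 34 higher and none lower at an adjusted p under 0.05, against a background of 56.7% of all genes higher and 7.77% lower. Their median log2 fold change was 1.03, beside 0.63 for all genes tested. With an unadjusted threshold none were lower either, since ATR was the only one with a value below 0 (-0.02).

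After rescaling, 14 of the 34 were higher and 1 lower, where 27.7% of all genes were higher and 24.8% lower. The median was then 0.59, beside 0.08 for all genes. Without shGLUD1 replicate 2 the rescaled count of higher genes was smaller, and no share of all genes is given here for that fit. Those called higher on both scales were RAD54L, RAD54B, FANCA, FANCG, FANCL, FANCD2, FANCI, ATRIP, CHEK1, CHEK2, TOPBP1, TP53BP1, MSH6 and PMS2. Of the genes at least 2-fold higher (log2 of TPM + 1) and past the test, 19 were repair genes on TPM, against 29.5% of all genes, and 5 after rescaling, against 8.46%. Those 5 were FANCD2, RAD54L, MSH6, TOPBP1 and TP53BP1.

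The filter matters for these counts. BRIP1, BRCA2, FANCM, XRCC2 and WRN fell below it, with means over the 4 libraries of 0.29 to 0.968 TPM, and MSH3 lay just inside at 1.05 TPM. A further 7 genes (BRCA1, BARD1, FANCB, EXO1, MRE11A, MSH3 and PMS2) averaged under 1 TPM in the controls and passed only through their shGLUD1 values, so they had to differ. Of the 27 with at least 1 TPM in shNT, 21 were called higher on TPM and none lower, against 54.1% and 8.69% of the 11193 genes with that level in shNT. After rescaling 13 of the 27 were higher and 1 lower, against 25.4% and 27.7%. With no filter, limma called 18 of the 39 higher against 24.1% of 24169 genes, and none lower (background 3.26%). After rescaling and with no filter, 10 were higher and none lower, against 9.51% and 9.94%. There RAD54B, FANCA, FANCG, FANCI, CHEK1 and PMS2 lost the rescaled call (adjusted p = 0.101, 0.116, 0.0758, 0.0565, 0.0619 and 0.0501), while BRCA2 and XRCC2 gained one. Without the filter, 36 of 39 had groups that did not overlap, against 49.9% of all genes.

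**Figure D1:**
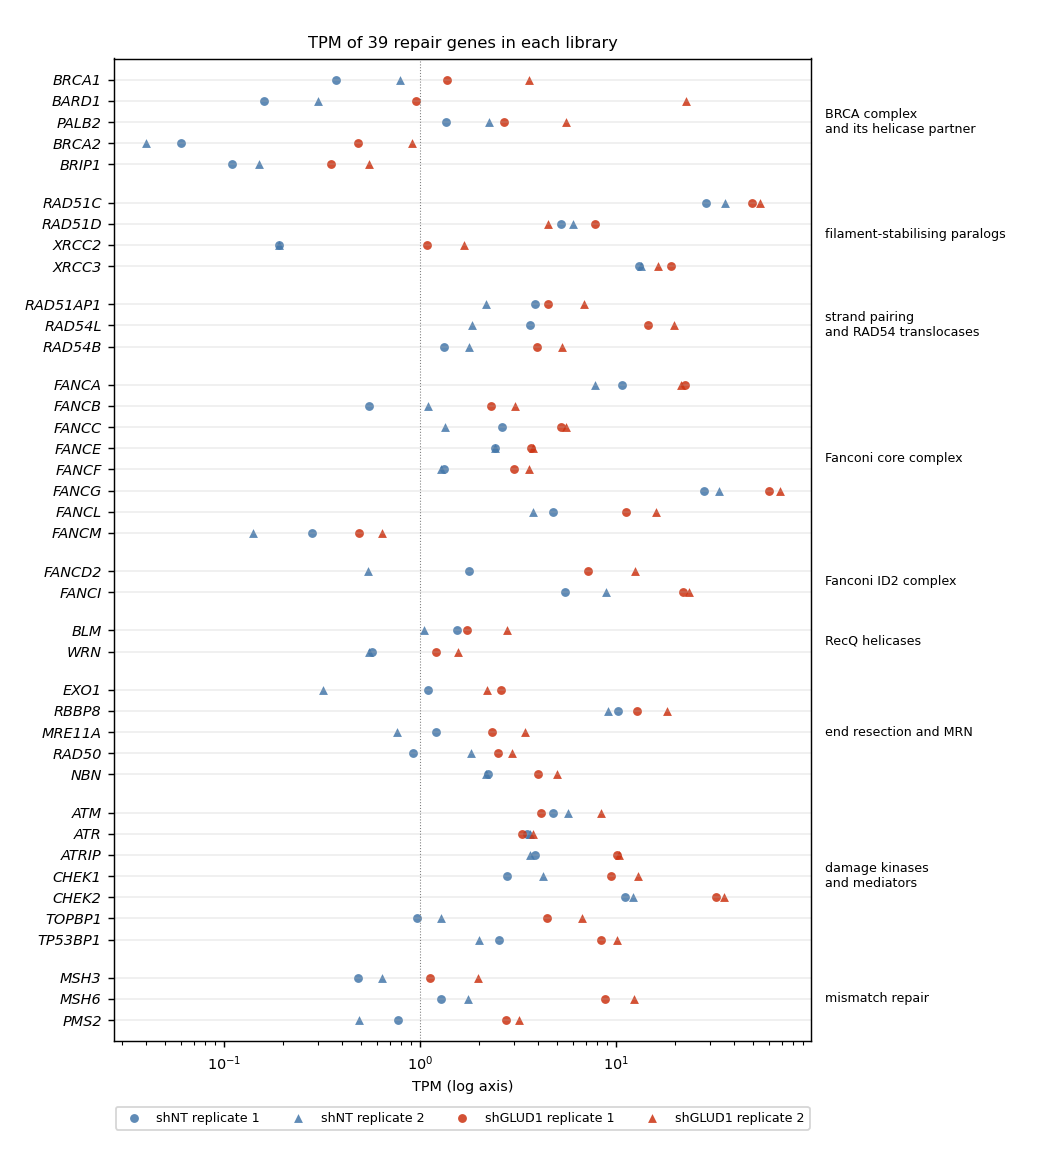
TPM of the 39 repair genes on a log axis, grouped by role, with 1 point per library (circles replicate 1, triangles replicate 2, blue shNT, red shGLUD1) and a dotted line at 1 TPM. Red points lie to the right of both blue points for all genes except RAD51D, ATM and ATR, and BARD1 has 1 shGLUD1 point far from the other.

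**Figure D2:**
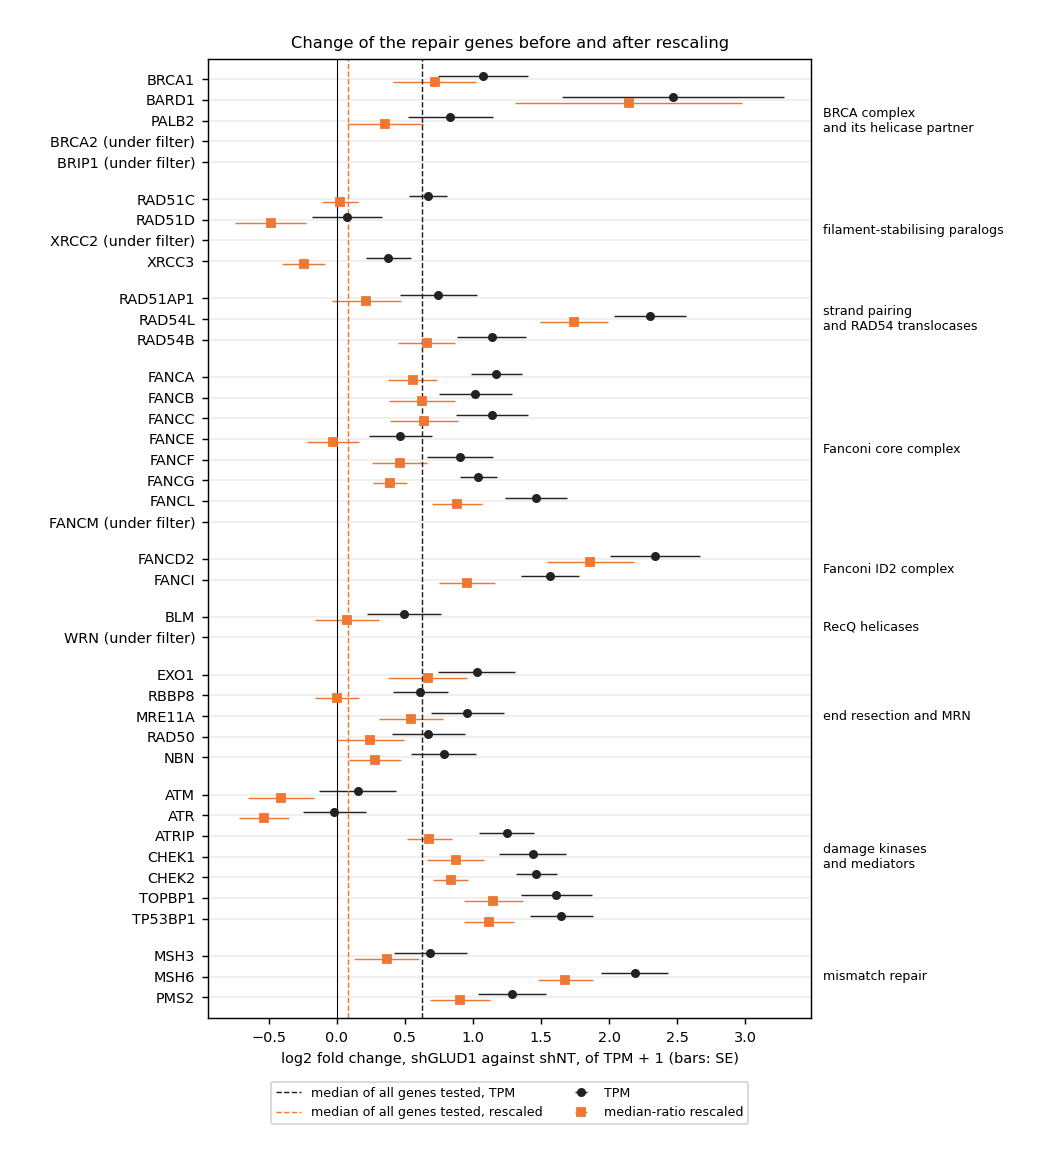
Log2 fold change of TPM + 1 with its SE (limma, 2 libraries per group) for the 34 repair genes that passed the filter, on TPM (black circles) and after median-ratio rescaling (orange squares). Dashed lines mark the medians of all genes tested, 0.63 and 0.08, and 5 genes under the filter have no point.

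Windows around the transcription start, from 250 bases before to 50 after it (RefSeq, GRCh38.p14), were found for 35 of the 39; FANCI, RAD54B, WRN and NBN had no entry. They are shown because E2F factors are known regulators of S phase genes. Whether E2F factors had a part in the values above was not tested. The letters TTTGGCGC, TTTCCCGC or TTTCGCGC, on either strand, occurred in the most upstream listed window of 7 of the 35 (20%), against 3.76% of 15843 protein-coding genes. CCAAT, on either strand, occurred in 48.6% against 36.4%, and TTTGAA or TTCGAA, the letters of the CHR element of mitotic genes, in 8.57% against 13.6%. In the MSH3 window, TTTGGCGC overlaps a match to TTTCGCGC on the other strand. The 30 bases around each match are given on the gene's own strand, with the matched letters in capitals.
FANCD2 (chr3:10026424-10026453, plus strand): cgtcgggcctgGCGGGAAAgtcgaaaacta
MSH6 (chr2:47783137-47783166, plus strand): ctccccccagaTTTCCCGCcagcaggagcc
TOPBP1 (chr3:133661930-133661959, minus strand): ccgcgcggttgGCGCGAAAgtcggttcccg
EXO1 (chr1:241848197-241848226, plus strand): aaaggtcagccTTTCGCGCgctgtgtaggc
XRCC2 (chr7:152676102-152676131, minus strand): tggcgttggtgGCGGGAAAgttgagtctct
MSH3 (chr5:80654534-80654563, plus strand): gcgcggtcaagTTTGGCGCGAAAttgtggc
FANCC (chr9:95317737-95317766, minus strand): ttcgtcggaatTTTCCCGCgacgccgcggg
FANCC (chr9:95317863-95317892, minus strand): ccggggcttccGCGCGAAAccgggaacact
In FANCD2 the match began 2 bases before the annotated start and in TOPBP1 7 bases before it, while in MSH6 it began at base 4 and in EXO1 at base 5 of the transcript. Of the 7 genes with a match, 6 were tested, and XRCC2 fell below the filter. All 6 were higher on TPM and 3 after rescaling, where 56.7% and 27.7% of all genes tested were higher. EXO1 and MSH3 passed the filter only through their shGLUD1 values, so they had to differ. The same holds for BRCA1, BARD1, FANCB, MRE11A and PMS2 among the genes without a match. Of the 25 tested genes with a window but no match, 19 were higher on TPM and 9 after rescaling. RAD54L, CHEK1, CHEK2 and TP53BP1, which were higher on both scales, had no match, which says only that these letters are not in this window.

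The BRCA genes were among the scarcest. BRCA1, a ubiquitin ligase that promotes resection and recruits PALB2, was at 0.37 and 0.79 TPM in the controls and at 1.37 and 3.58 TPM in shGLUD1. The groups did not overlap, and limma gave a log2 fold change of 1.07 (SE 0.33, adjusted p = 0.0145). It was not called after rescaling (0.72, adjusted p = 0.0746) or without shGLUD1 replicate 2 (0.60, adjusted p = 0.0999). BARD1 (ENSG00000138376, chromosome 2, 214725646 to 214809711, minus strand), the partner that BRCA1 needs for ligase activity, was at 0.16 and 0.3 TPM in the controls and at 0.95 and 22.75 TPM in shGLUD1. The increase thus came largely from 1 library: the log2 fold change was 2.47 (SE 0.81, adjusted p = 0.0204), 0.67 without shGLUD1 replicate 2 and 4.27 without shGLUD1 replicate 1. After rescaling BARD1 was at 2.14 (adjusted p = 0.0574).

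PALB2, the bridge between BRCA1 and BRCA2, was at 1.35 and 2.23 TPM in the controls and 2.68 and 5.55 TPM in shGLUD1 (log2 fold change 0.83, adjusted p = 0.0354). It lost its call without shNT replicate 1 (0.60, adjusted p = 0.209) or shGLUD1 replicate 2 (0.42, adjusted p = 0.249), and its rescaled value of 0.35 did not pass. BRCA2, which starts the filament on resected ends, was listed at 0.06 and 0.04 TPM in the controls and at 0.48 and 0.91 TPM in shGLUD1. BRIP1, a helicase that binds BRCA1, was at 0.11 and 0.15 TPM in the controls and 0.35 and 0.55 TPM in shGLUD1. Both were under the filter and separated the groups. With no filter BRCA2 passed on TPM (adjusted p = 0.0436) and rescaled (0.0479 as the adjusted p), and BRIP1 did not (adjusted p = 0.0779).

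The paralogs RAD51C, RAD51D, XRCC2 and XRCC3, which stabilise the filament, were an uneven set. RAD51C was the most abundant, at 28.82 and 35.87 TPM in the controls and 49.42 and 54.15 TPM in shGLUD1. It rose on TPM (log2 fold change 0.67, SE 0.14, adjusted p = 0.002), by about as much as the median gene, and stood at 0.02 after rescaling. RAD51D was at 5.2 and 6.01 TPM in the controls and at 7.76 and 4.49 TPM in shGLUD1, so its shGLUD1 libraries lay on either side of the controls (0.07, adjusted p = 0.814). XRCC3 was at 13.11 and 13.41 TPM in the controls and 18.91 and 16.25 TPM in shGLUD1 (0.38, adjusted p = 0.065). The exons of XRCC3 share 76.7% of their bases with exons of KLC1 on the opposite strand, which was at 36.26 to 131.85 TPM. Because the labels do not say whether strand was used in counting, reads of the 2 genes may not have been told apart. XRCC2, under the filter, was at 0.19 TPM in both shNT libraries and at 1.08 and 1.67 TPM in shGLUD1, and passed with no filter (0.99, adjusted p = 0.029, and rescaled 0.74, adjusted p = 0.0379).

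Among the proteins that act on the filament, RAD54L moved most. RAD54L (ENSG00000085999, chromosome 1, 46247688 to 46278473, plus strand), a motor that drives strand invasion, was at 3.63 and 1.83 TPM in the controls and at 14.43 and 19.59 TPM in shGLUD1. Both shGLUD1 libraries were several times above both controls, with a log2 fold change of 2.30 (SE 0.27, adjusted p = 5.13e-05) and a rescaled value of 1.74 (adjusted p = 0.000786). It was called with each library left out in turn on both scales (lowest values 1.94 and 1.37). Of its exon bases, 25.1% are shared with LRRC41 on the opposite strand, which was at 25.55 to 39.07 TPM.

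RAD54B, a related motor, was at 1.32 and 1.78 TPM in the controls and 3.96 and 5.29 TPM in shGLUD1 (1.14, adjusted p = 0.00253, rescaled 0.66, adjusted p = 0.0276). The rescaled call held in 1 of the 4 fits with a library left out. Its annotation shares 59.1% of exon bases with FSBP on the same strand, at 0.54 to 1.3 TPM, so their split is uncertain. RAD51AP1, which stimulates strand pairing, was at 3.86 and 2.16 TPM in the controls and at 4.49 and 6.88 TPM in shGLUD1. It passed on TPM (0.75, adjusted p = 0.0377), but not without shNT replicate 2 (0.44, adjusted p = 0.356) or shGLUD1 replicate 2 (0.49, adjusted p = 0.246), and not rescaled (0.22).

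The Fanconi core complex had 6 of 7 tested members higher on TPM and 3 after rescaling, where 56.7% and 27.7% of all genes tested were higher. One of the 6, FANCB, passed the filter only through its shGLUD1 values. FANCG, a scaffold of the complex, was the most abundant of the 39 genes in shGLUD1, at 27.95 and 33.27 TPM in the controls and 59.76 and 67.96 TPM in shGLUD1 (1.04, SE 0.14, adjusted p = 0.000111, rescaled 0.39, adjusted p = 0.0265). FANCA, which pairs with FANCG, was at 10.74 and 7.81 TPM in the controls and 22.42 and 21.46 TPM in shGLUD1 (1.17, adjusted p = 0.000339, rescaled 0.56, adjusted p = 0.0281). FANCL, the ubiquitin ligase subunit, was at 4.73 and 3.75 TPM in the controls and 11.17 and 15.95 TPM in shGLUD1 (1.46, adjusted p = 0.000308, rescaled 0.88, adjusted p = 0.00457). These 3 were the core genes that passed on both scales, although, of the 4 fits with a library left out, FANCL kept the rescaled call in 3 (not without shGLUD1 replicate 2, adjusted p = 0.0521) and FANCA and FANCG in 1 each (FANCA without shNT replicate 1, FANCG without shNT replicate 2).

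Lower levels were found for the other core subunits. FANCB was at 0.55 and 1.1 TPM in the controls and 2.29 and 3.05 TPM in shGLUD1 (1.02, adjusted p = 0.00667). FANCC was at 2.61 and 1.34 TPM in the controls and 5.25 and 5.57 TPM in shGLUD1 (1.14, adjusted p = 0.00346). FANCF was at 1.32 and 1.27 TPM in the controls and 3.02 and 3.6 TPM in shGLUD1 (0.91, adjusted p = 0.00725). Each was called on TPM and not after rescaling (0.63, 0.64 and 0.46), and each lost its TPM call with 1 library left out (adjusted p = 0.0819, 0.0715 and 0.0557): FANCB without shNT replicate 1, and FANCC and FANCF without shNT replicate 2. FANCE, which docks FANCD2, was at 2.42 and 2.41 TPM in the controls and 3.67 and 3.78 TPM in shGLUD1. It separated the groups with little spread and still did not pass (0.47, adjusted p = 0.0971, rescaled -0.03). That depended on the variance trend in the limma fit, since FANCE passed on TPM without it (adjusted p = 0.0327). FANCM, the translocase that anchors the complex to DNA, was under the filter at 0.28 and 0.14 TPM in the controls and 0.49 and 0.64 TPM in shGLUD1.

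Both substrates of the core complex rose. FANCD2 (ENSG00000144554, chromosome 3, 10026414 to 10101930, plus strand) was at 1.78 and 0.54 TPM in the controls and at 7.15 and 12.39 TPM in shGLUD1. The replicates of each group were far apart and the groups still did not overlap (2.34, SE 0.33, adjusted p = 0.000168, rescaled 1.86, adjusted p = 0.00185). FANCI, its partner, was at 5.48 and 8.87 TPM in the controls and at 21.96 and 23.34 TPM in shGLUD1 (1.56, SE 0.21, adjusted p = 0.000139, rescaled 0.95, adjusted p = 0.00499). Both were called on both scales with each library left out in turn.

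BLM and WRN, helicases of the RecQ family that unwind recombination intermediates, gave no call with the filter. BLM was at 1.54 and 1.04 TPM in the controls and 1.73 and 2.76 TPM in shGLUD1 (0.49, adjusted p = 0.129, rescaled 0.08), and passed once shGLUD1 replicate 1 was left out (0.72, adjusted p = 0.0484). WRN was under the filter, at 0.57 and 0.55 TPM in the controls and 1.2 and 1.55 TPM in shGLUD1.

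All 5 genes of end resection were called higher on TPM and none after rescaling, where 56.7% and 27.7% of all genes tested were higher. EXO1 and MRE11A passed the filter only through their shGLUD1 values. RBBP8, which encodes the CtIP protein that starts resection, was the most abundant, at 10.14 and 9.02 TPM in the controls and 12.68 and 18.08 TPM in shGLUD1 (0.61, adjusted p = 0.0208, rescaled 0.00). EXO1, the nuclease of long-range resection, was at 1.09 and 0.32 TPM in the controls and 2.59 and 2.19 TPM in shGLUD1 (1.03, adjusted p = 0.00865, rescaled 0.67, adjusted p = 0.0808). MRE11A, RAD50 and NBN form the complex that first binds broken ends. MRE11A was at 1.21 and 0.76 TPM in the controls and 2.31 and 3.44 TPM in shGLUD1 (0.96, adjusted p = 0.00896). RAD50 was at 0.92 and 1.81 TPM in the controls and 2.49 and 2.93 TPM in shGLUD1 (0.67, adjusted p = 0.047). NBN was at 2.21 and 2.16 TPM in the controls and 4.01 and 5.01 TPM in shGLUD1 (0.78, adjusted p = 0.0137). The rescaled values of these 3 lay between 0.24 and 0.55. Each of the 5 depended on single libraries. RBBP8 kept its TPM call only without shGLUD1 replicate 1, and RAD50 only without shNT replicate 2 (adjusted p up to 0.129 and 0.414 in the others). EXO1 lost it without shNT replicate 2 (0.70, adjusted p = 0.135) or shGLUD1 replicate 1, MRE11A without shNT replicate 2 or shGLUD1 replicate 2, and NBN without either shNT library.

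The damage kinases and their mediators split into genes that moved and genes that did not pass. ATR, the kinase of stalled forks, was at 3.51 and 3.65 TPM in the controls and at 3.32 and 3.74 TPM in shGLUD1, nearly the same level in all 4 libraries (-0.02, SE 0.23, adjusted p = 0.952). Relative to the median gene it was lower (rescaled -0.53, adjusted p = 0.0379), a call that was lost with no filter (adjusted p = 0.0866) and with any 1 library left out. ATM, the kinase of double-strand breaks, was at 4.78 and 5.7 TPM in the controls and at 4.11 and 8.37 TPM in shGLUD1, with 1 shGLUD1 library below and 1 above the controls (0.15, adjusted p = 0.653, rescaled -0.41, adjusted p = 0.184).

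ATRIP, CHEK1 and CHEK2, which act with these kinases, were called higher on both scales. The shares of all genes tested called higher were 56.7% on TPM and 27.7% rescaled. ATRIP, the subunit that brings ATR to single-stranded DNA, was at 3.83 and 3.61 TPM in the controls and 10.12 and 10.28 TPM in shGLUD1 (1.25, SE 0.21, adjusted p = 0.000428, rescaled 0.68, adjusted p = 0.00948). Its rescaled call was lost without shGLUD1 replicate 1 (adjusted p = 0.0627). Its annotation shares 27.9% of exon bases with TREX1 on the same strand, which was at 22.55 and 22.75 TPM in the controls and 62.23 and 55.42 TPM in shGLUD1, so how reads were split between them is uncertain. CHEK1, the effector kinase of ATR, was at 2.78 and 4.23 TPM in the controls and 9.44 and 12.9 TPM in shGLUD1 (1.44, adjusted p = 0.000521, rescaled 0.87, adjusted p = 0.00845). Its rescaled call was lost without shGLUD1 replicate 2 (adjusted p = 0.0799). CHEK2, the effector kinase of ATM, was at 11.04 and 12.13 TPM in the controls and 32.24 and 35.3 TPM in shGLUD1. Its replicates were close, and it gave the smallest adjusted p of the 34 on TPM (1.47, SE 0.15, adjusted p = 2.83e-05, rescaled 0.84, adjusted p = 0.00101).

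TOPBP1 (ENSG00000163781, chromosome 3, 133598175 to 133662380, minus strand), the activator of ATR, was at 0.96 and 1.28 TPM in the controls and 4.44 and 6.68 TPM in shGLUD1 (1.61, SE 0.26, adjusted p = 0.000396, rescaled 1.15, adjusted p = 0.0028). TP53BP1, which restrains resection and favours end joining, was at 2.52 and 2 TPM in the controls and 8.37 and 10.11 TPM in shGLUD1 (1.65, SE 0.23, adjusted p = 0.000149, rescaled 1.12, adjusted p = 0.00152). TP53BP1 shares 28.7% of its exon bases with TUBGCP4 on the opposite strand, which was at 1.74 to 6.78 TPM. Both genes kept their calls on both scales with each library left out in turn.

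In mismatch repair, MSH6 stood out by size. MSH6 (ENSG00000116062, chromosome 2, 47695530 to 47810101, plus strand, with the annotated gene beginning well upstream of the start in the window above), which recognises single mismatches, was at 1.27 and 1.75 TPM in the controls and at 8.73 and 12.32 TPM in shGLUD1 (2.19, SE 0.25, adjusted p = 4.57e-05, rescaled 1.68, adjusted p = 0.000382). MSH3, which recognises larger loops, was at 0.48 and 0.64 TPM in the controls and 1.12 and 1.97 TPM in shGLUD1. It passed narrowly on TPM (0.69, adjusted p = 0.042) and not after rescaling (0.37) or in 3 of the 4 fits with a library left out, keeping its call only without shGLUD1 replicate 1. PMS2, which nicks the strand to be repaired, was at 0.77 and 0.49 TPM in the controls and 2.75 and 3.18 TPM in shGLUD1 (1.29, adjusted p = 0.00119, rescaled 0.91, adjusted p = 0.00888). Near-identical copies of PMS2 exist: PMS2P1 was listed at 9.73 to 24.3 TPM, above PMS2 itself in every library, so the PMS2 values depend on how reads were shared out.

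Smaller exon overlaps with a gene on the opposite strand touched FANCA (23.6% of exon bases, with ZNF276), FANCL (18.7%, with VRK2) and MSH6 (16.2%, with FBXO11 at 0.75 to 5.42 TPM), and these values carry the same uncertainty of strand.

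Ratios of 2 genes within a library do not depend on the scaling between libraries. For 8 pairs of functionally linked genes, chosen after their values were seen, such ratios were compared. ATRIP over ATR was 1.09 and 0.989 in shNT and 3.05 and 2.75 in shGLUD1, and CHEK1 over ATR was 0.792 and 1.16 in shNT and 2.84 and 3.45 in shGLUD1. CHEK2 over ATM was 2.31 and 2.13 in shNT and 7.84 and 4.22 in shGLUD1. MSH6 over MSH3 was 2.65 and 2.73 in shNT and 7.79 and 6.25 in shGLUD1. In these 4 pairs the first gene rose relative to the second in both shGLUD1 libraries. The partners ATR and ATM had log2 fold changes of -0.02 and 0.15 on TPM, below the median of 0.63 for all genes tested. How often other genes rose over the same partners was not tested. RAD54L over RAD54B (2.75 and 1.03, then 3.64 and 3.70) also separated the groups, FANCD2 over FANCI did so by a hair (0.325 and 0.0609, then 0.326 and 0.531), and BARD1 over BRCA1 ranged from 0.38 to 6.35 with the 1 high library. NBN over RAD50 overlapped (2.40 and 1.19, then 1.61 and 1.71). With 2 libraries against 2 the exact two-sided permutation test cannot give a p below 0.33, which is the value for each pair but NBN over RAD50 (1 as its exact p); adjusted over the 8 pairs it is 0.381.

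**Figure D3:**
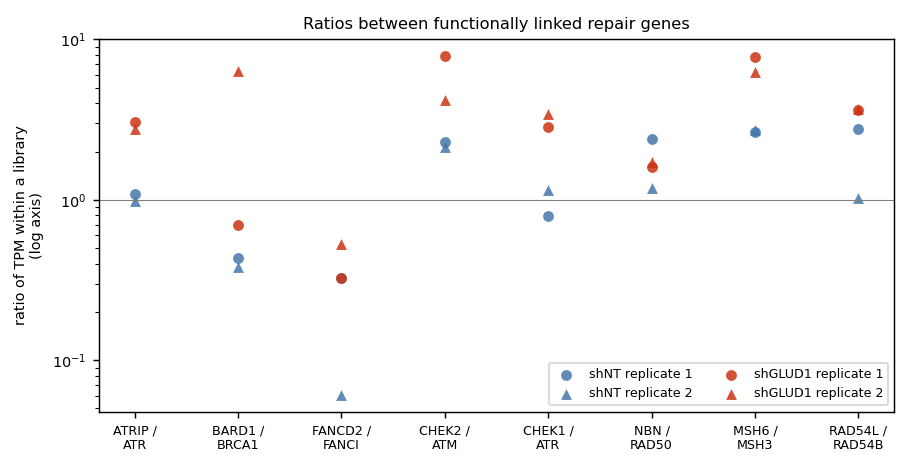
Ratio of the TPM of linked repair genes within each library, on a log axis, with 1 point per library (blue shNT, red shGLUD1). The ratios of ATRIP and CHEK1 to ATR lie near 1 in shNT and between 2.75 and 3.45 in shGLUD1, while the groups overlap for NBN over RAD50.

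The remaining genes of these pathways were read from lists made by function, and each count is to be read against the 56.7% higher and 7.77% lower of all genes tested on TPM, and 27.7% and 24.8% after rescaling. Of 34 other recombination and crosslink repair genes tested, 18 were higher on TPM and none lower, and 14 were higher and 9 lower after rescaling (medians 0.72 and 0.21). On TPM that share of higher genes was below the share of all genes, and the rescaled share of lower genes was close to it. RMI2, a subunit of the BLM dissolvase, was at 3.42 ± 0.03 TPM in the controls and 21.1 ± 1.6 TPM in shGLUD1 (SD, n = 2; log2 fold change 2.32, rescaled 1.74), and RPA1, which coats single-stranded DNA, was at 4.61 ± 0.52 TPM in the controls and 25.5 ± 5.3 TPM in shGLUD1 (2.23, rescaled 1.63). RFWD3, a ubiquitin ligase acting on RPA, had 1.89 (rescaled 1.34). Of 18 other checkpoint and chromatin mediators, 14 were higher on TPM and none lower, and 12 were higher and 2 lower rescaled, led by WEE1, CLSPN and CDC25C (2.18, 2.16 and 2.07).

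The other repair routes were mixed. Among 11 end joining genes, 4 were higher on TPM and, after rescaling, 3 higher and 4 lower; XRCC5, PRKDC and XRCC6, the subunits of the DNA-dependent kinase, had the largest changes (2.07, 2.07 and 1.35). Nucleotide excision repair had 12 of 17 higher on TPM, and 3 higher and 3 lower rescaled, with RAD23B, ERCC5 and XPC at 2.18, 1.56 and 1.18. Base excision repair had 14 of 18 higher, and 8 higher and 3 lower rescaled, with NEIL3, PARP1 and FEN1 at 1.94, 1.94 and 1.83. None of these lists had a gene called lower on TPM. Whether the lists differ from each other was not tested.

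Most markers of dividing cells were also higher in shGLUD1. Of all genes tested, 56.7% were higher on TPM and 27.7% after rescaling. Of 17 S phase markers tested, 16 were higher on TPM and 15 after rescaling, none lower, and their TPM summed to 251 and 230.2 in shNT and 625 and 788 in shGLUD1. All 17 tested G2 and M markers were higher on TPM and 16 after rescaling, with sums of 218 and 201 TPM in the controls and 849 and 992 TPM in shGLUD1. The mean TPM of RRM2 was 9.21 ± 1.1 in the controls and 78.1 ± 23.7 in shGLUD1 (SD, n = 2), and that of NUSAP1 was 4.44 ± 0.50 in the controls and 47.0 ± 12.6 in shGLUD1. The list of cell cycle inhibitors and quiescence markers, with 7 tested, was also higher throughout (4 of 7 rescaled), led by TXNIP, RBL2 and CDKN2D (3.85, 1.56 and 1.40). In these bulk samples a different share of cells in cycle and a different RNA level per cell cannot be told apart, and the part of either in the repair gene values was not tested.

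**Figure D4:**
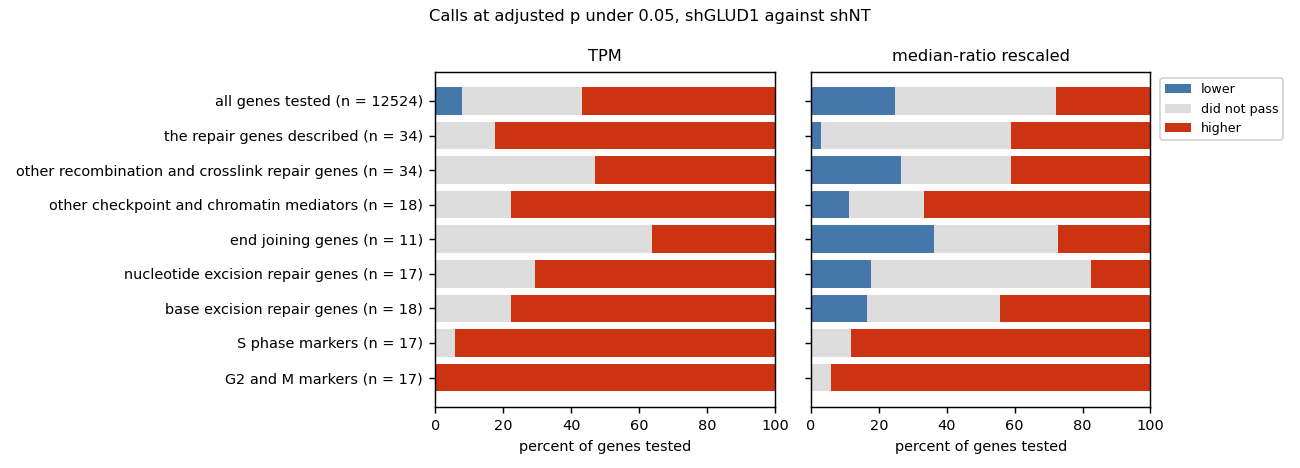
Share of tested genes called higher (red), lower (blue) or neither (grey) at an adjusted p under 0.05, on TPM (left) and after median-ratio rescaling (right), for the repair genes described, 5 other repair lists, S phase and G2 and M markers, and all genes tested. On TPM the repair genes have 28 of 34 higher against 56.7% of all genes, and after rescaling 14 of 34 against 27.7%.

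Library and transcript properties were set beside these values. Replicate 2 of shGLUD1 was above replicate 1 in 35 of the 39 repair genes, and in 73.7% of all genes tested. The repair transcripts were longer than most, with a median of 4728 nt (longest coding transcript in GENCODE release 29) against 3181 nt for all genes tested, and lower in GC content (41.9% against 49.2%). Across all 12258 genes with a length, the log2 fold change was higher in longer transcripts (Spearman rho 0.36), whereas across the 34 repair genes rho was -0.02; genes in each set share the same 4 libraries. With trends in length and GC content removed, 26 of the 34 were higher and none lower, with a median of 0.88, where 59.9% of all genes were higher and 6.23% lower, with a median of 0.62. PALB2, RBBP8, RAD50 and MSH3 then lost their calls (adjusted p = 0.0876, 0.0545, 0.181 and 0.159), and XRCC3 and FANCE gained one (0.45 and 0.61, adjusted p = 0.0245 and 0.0238).

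**Figure D5:**
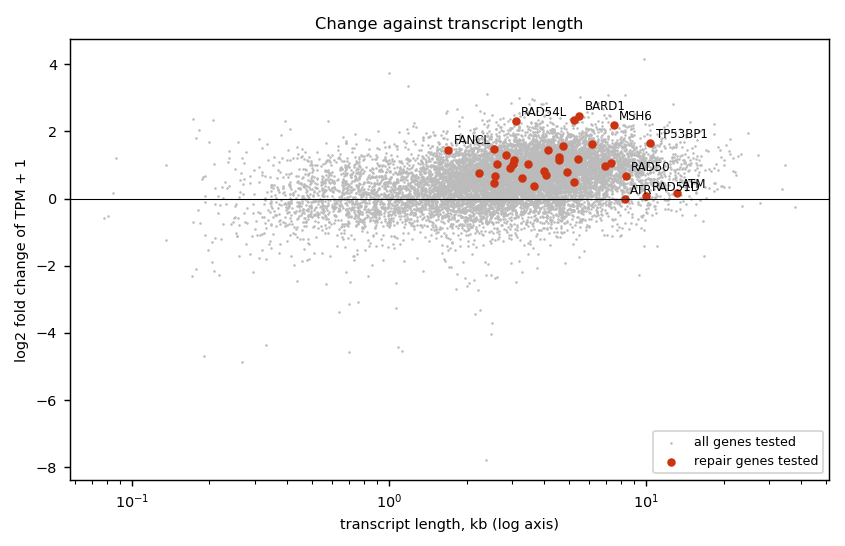
Log2 fold change of TPM + 1 against transcript length in kb (log axis) for all genes tested with a length (grey) and the 34 repair genes tested (red). The 3 genes near 0 at the long end are ATR, RAD51D and ATM, while TP53BP1 and MSH6 are long and high.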

How the data were processed

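The TruSeq V2 chemistry turned 1 µg of RNA per sample into 4 libraries, 2 per hairpin (per the labels). The authors deposited TPM per gene, 1 column per library, each summing to 1000000; read totals are not kept, so depth is unknown and no counting interval or floor is given. Per the submitters' processing notes, hg38, mm8 and Bowtie 0.12.2 were involved, in roles they leave unstated; quantifier, annotation and strand setting: not given in the sources used here.

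Values were tested as log2(TPM + 1), so folds of low genes are understated, for the 12524 genes averaging 1 TPM or more. Groups were compared with limma 3.58.1 (R 4.3.3, variance trend, group as the only term), two-sided, with Benjamini-Hochberg adjustment over all genes tested. Median-ratio factors came from the 10427 genes above 1 TPM in every library (log2 -0.33 and -0.32 for shNT, 0.25 and 0.43 for shGLUD1). Positions and lengths came from GENCODE release 29 (GRCh38), matched by identifier for 52338 of 57820 genes. Python 3.11.15 was used for tables and figures.

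The repair genes, lists and tests were chosen with earlier results of these data known. All 39 repair genes are named. From each list other than the cell type markers, up to 3 passing genes with the largest change are named, and up to 2 that went against it. Some items are not reported here.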

Additional observations from a re-analysis of the deposited data

How the results depend on the processing

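Depth is unknown and there were 2 libraries per group, so low genes such as BRCA2, BRIP1 and FANCM are the least certain. The count of repair genes called higher (28 of 34, against 56.7% of all genes) was 18 of 39 with no filter on low values (against 24.1%). It was 14 of 34 after median-ratio rescaling, with 1 lower (against 27.7% and 24.8%). At a mean of at least 5 TPM it was 14 of 17, and after quantile normalization 12 of 34 (1 lower). Each fit on TPM with a library left out gave a count below 28. Rescaled with no filter, chosen after seeing the data, it was 10 of 39, and rescaled without shNT replicate 1, shNT replicate 2, shGLUD1 replicate 1 or shGLUD1 replicate 2, also added later, 15, 16, 12 and 9 (with 0, 0, 1 and 1 lower). The count was 26 with a pseudocount of 0.1, 26 without a variance trend, and 29 of 35 with protein-coding genes only. No share of all genes is given here for these settings, with a replicate block or with a library left out. Those counts therefore stand without a background. The median log2 fold change (1.03) was 1.45 with a pseudocount of 0.1 and 1.44 at a mean of at least 5 TPM. It was 0.59 rescaled, 0.435 after quantile normalization and 0.55 rescaled with no filter. Rescaled without shNT replicate 1, shNT replicate 2, shGLUD1 replicate 1 or shGLUD1 replicate 2, it was 0.53, 0.53, 0.61 and 0.46. For all 12524 genes tested, 7105 higher and 973 lower became 3471 and 3102 rescaled, and 2938 and 2764 after quantile normalization. At a mean of at least 5 TPM 4676 were higher, out of fewer genes tested. The number of genes tested at that level is not given here, so the 14 of 17 repair genes stand without a share of all genes. GLUD1 was at -0.74 rescaled and -0.75 after quantile normalization, both past the threshold, and between -0.37 and 0.15 with each library left out.

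Rescaled with a library left out, the lowest values of RBBP8, RAD51C, RAD51AP1 and RAD50, all called on TPM, were -0.15, -0.13, -0.11 and -0.06. Rescaled, with or without the filter, RAD51D, XRCC3, FANCE and ATM were at -0.49, -0.24, -0.028 and -0.41. After quantile normalization these were -0.68, -0.29, -0.24 and -0.61, with BLM at -0.16 and RBBP8 at -0.084. With length and GC trends removed RAD51D was -0.27 and ATM -0.065. With each library left out RAD51D ranged from -0.26 to 0.41 (-0.02 without shNT replicate 1), ATM from -0.28 to 0.59 and ATR from -0.084 to 0.050 (0.00 without shNT replicate 2). The cause of these changes was not tested. With the replicate number as a block, 28 of 34 were again higher and no repair gene changed its call; same-numbered libraries deviated together only weakly (r = 0.039 across genes), so the numbers were not taken as pairs. Leaving out 1 library leaves an arm with 1 sample, assumed to vary like the other group.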
